A study of Mus musculus with 18 samples.

Results

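The urea cycle and the enzymes that feed it ammonia were followed through 10 genes in mouse hepatocytes taken from either end of the liver lobule in the fed state, after 8 h and after 24 h without food. The genes were chosen by name: Cps1, Nags, Otc, Ass1, Asl and Arg1 for the cycle itself, Slc25a15 and Slc25a13 for the mitochondrial carriers it depends on, and Gls2 and Glud1 for the release of ammonia. All 10 were found by symbol among the 28030 Ensembl genes of the count table, and all 10 passed the filter on low counts. Hepatocytes labelled pericentral (beside the central vein, where blood leaves the lobule) or periportal (beside the portal vein, where it enters) came from male wild-type C57BL/6J mice aged 12 weeks on normal chow. The sample titles name digitonin, a detergent that opens cell membranes, for the isolation of each zone. Every mouse, the fed controls included, had been trained for 3 days to 16 h of overnight fasting and 8 h of daytime feeding, and on the last day received food with 20% sucrose in the drinking water. Fed mice were killed at clock hour 13 after 4 h of feeding, 8 h fasted mice at hour 21 and 24 h fasted mice at hour 13 of the following day, so the 8 h groups also differ from the others in clock time. Each of the 6 groups of zone and state held 3 libraries of total RNA. The labels do not say that the 3 came from separate mice, so p-values measure the spread between these libraries, which may be technical.

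The urea cycle turns ammonia, which is toxic, into urea for excretion. In the mitochondrion Cps1 joins ammonia and bicarbonate to carbamoyl phosphate, an enzyme step that runs only in the presence of N-acetylglutamate, the product of Nags; Otc then makes citrulline, and in the cytosol Ass1, Asl and Arg1 complete the turn to urea and ornithine. In the liver the cycle is known as a periportal function, with glutaminase releasing ammonia upstream, while a thin rim of cells around the central vein scavenges what is left as glutamine through Glul, glutamine synthetase.

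Total estimated counts lay between 1.84e+07 and 2.64e+07 per library, and the 3 libraries per group limit the precision. Levels are given as CPM, counts scaled to a common library total and corrected for composition between libraries. Summed, 7 pericentral markers were at 10400 to 19400 CPM in the 9 pericentral libraries and 480 to 2160 CPM in the 9 periportal ones. Cyp2e1, which reached 16100 CPM, made up most of that sum, while the other pericentral markers reached at most 1430 CPM. The sum of 6 periportal markers was 337 to 603 CPM pericentrally and 4340 to 6250 CPM periportally in the fed state. It was 2430 to 2780 and 6650 to 11400 CPM at 8 h and 5640 to 6760 and 10200 to 11200 CPM at 24 h. The zones were thus apart in each state, while over all states the ranges were 337 to 6760 and 4340 to 11400 CPM. A large part of the 24 h sums was Pck1. It was at 4840 CPM in pericentral replicate 2, and averaged 4810 CPM in the other 2 pericentral libraries and 5920 CPM periportally. The next highest there, Cyp2f2, was at 793, 333 and 1770 CPM in the same order. At 24 h against fed, 5 of the 6 periportal markers were called higher in pericentral and 2 in periportal hepatocytes. The shares over all genes were 10.8% and 9.59%. Pericentral 24 h replicate 2 stood apart from its group: Glul was at 111 CPM against a mean of 818 CPM in the other 2, and the periportal marker Cyp2f2 at 793 CPM against 333 CPM. The 5 general hepatocyte markers summed to 53400 to 93800 CPM in pericentral and 105000 to 183000 CPM in periportal libraries. Alb reached 160000 CPM, while Apoa1, Tat, Ttr and Tdo2 reached at most 9530 CPM. Of the 5, 1 was called higher periportally in each state, beside 3.89%, 3.72% and 1.7% of all genes. On average over the states 2 were called higher, and 0 were called lower. Sums over 5 markers each were 2.63 to 9.29 CPM (pericentral) and 3.43 to 25.8 CPM (periportal) for sinusoidal endothelium, 0.328 to 3.71 and 0.606 to 12.3 CPM for Kupffer cells and leukocytes, 0.696 to 4.94 and 0.969 to 14.5 CPM for stellate cells, and 19.3 to 37.6 and 32.8 to 56.7 CPM for cholangiocytes. Of the markers tested in the averaged zone comparison, 3 of 4 endothelial, 2 of 5 Kupffer, 0 of 3 stellate and 2 of 3 cholangiocyte genes were higher periportally. The share over all genes was 10.3%. The cholangiocyte marker Epcam was at 0 in all 18 libraries. The part of these cells in the zone differences was not tested. In bulk RNA, fewer cells of a type and less RNA per cell cannot be told apart.

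To compare levels between genes, CPM were divided by the length in kilobases of each gene's longest coding transcript and averaged over the 18 libraries. On that scale Ass1 stood highest at 2260 CPM per kb (range 1280 to 3430), followed by Arg1 at 1220 (482 to 1880) and Cps1 at 952 (671 to 1350). Asl at 377 (152 to 688) and Glud1 at 350 (268 to 430) formed a middle tier. Gls2 averaged 136 CPM per kb over the widest relative range, 36.5 to 236, and Otc averaged 110 (76.8 to 149). The carriers Slc25a15 at 91.3 (66.2 to 135) and Slc25a13 at 73.2 (51.1 to 111) and the activator enzyme Nags at 38.2 (28 to 48.7) were lowest. The ranges of neighbours in this order overlapped except between Glud1 and Gls2 and between Slc25a13 and Nags.

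**Figure D1:**
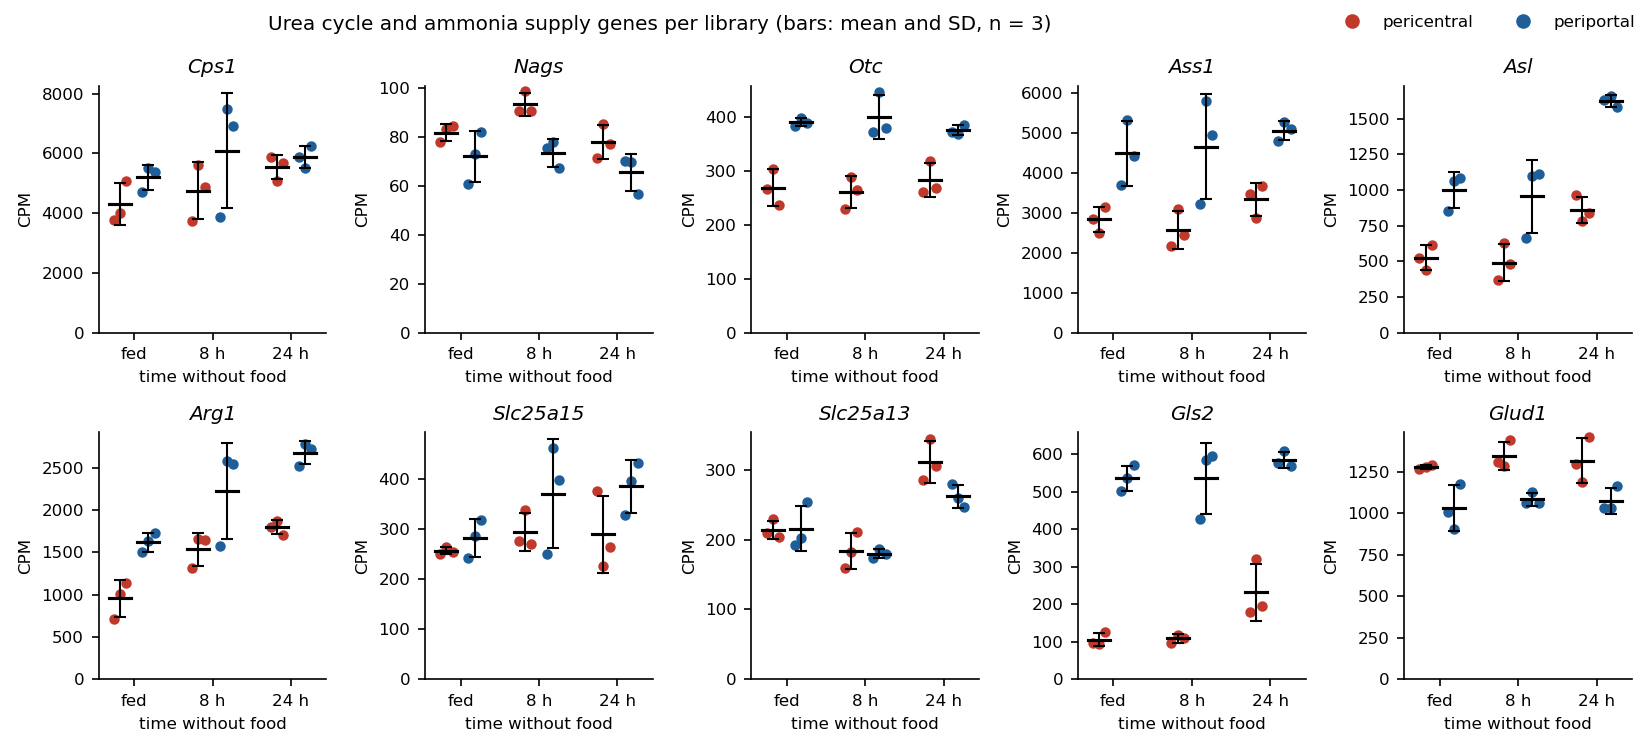
Level in CPM (vertical axes, from 0) of each of the 10 genes in the 18 libraries, by time without food; red points are pericentral and blue points periportal libraries, and bars give the mean and SD of 3. Gls2 is at 93.8 to 320 CPM in every red point and at 425.5 to 608 CPM in every blue one, whereas the zones overlap for Cps1.

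RefSeq promoter sequences (mm10, assembly GRCm38.p6) were matched for 6 of the 10 genes. Those of 4 genes are shown for the 250 bases before the start site, 5′ to 3′: Ass1 and Otc because they were higher periportally, Nags because it was higher pericentrally, and Slc25a13 because it rose from fed to 24 h in pericentral hepatocytes. Capitals mark letters of the 7 motifs searched on both strands over 300 bases, from 250 before the start to 50 after it.

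Ass1, chr2:31470020-31470269, forward strand: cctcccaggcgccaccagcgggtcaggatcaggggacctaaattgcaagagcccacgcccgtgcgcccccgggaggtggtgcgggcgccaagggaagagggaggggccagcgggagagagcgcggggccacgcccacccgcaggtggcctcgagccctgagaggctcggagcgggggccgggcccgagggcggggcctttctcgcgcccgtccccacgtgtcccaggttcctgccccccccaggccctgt

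Otc, chrX:10252055-10252304, forward strand: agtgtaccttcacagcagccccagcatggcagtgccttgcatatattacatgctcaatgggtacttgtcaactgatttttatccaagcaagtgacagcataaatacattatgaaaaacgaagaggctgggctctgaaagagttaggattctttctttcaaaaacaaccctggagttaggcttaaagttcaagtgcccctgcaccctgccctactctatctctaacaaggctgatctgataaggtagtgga

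Nags, chr11:102145263-102145512, forward strand: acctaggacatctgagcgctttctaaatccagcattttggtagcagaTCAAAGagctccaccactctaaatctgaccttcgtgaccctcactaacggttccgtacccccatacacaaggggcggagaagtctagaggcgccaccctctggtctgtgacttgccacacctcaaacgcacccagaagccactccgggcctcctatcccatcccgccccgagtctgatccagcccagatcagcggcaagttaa

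Slc25a13, chr6:6217174-6217423, reverse strand: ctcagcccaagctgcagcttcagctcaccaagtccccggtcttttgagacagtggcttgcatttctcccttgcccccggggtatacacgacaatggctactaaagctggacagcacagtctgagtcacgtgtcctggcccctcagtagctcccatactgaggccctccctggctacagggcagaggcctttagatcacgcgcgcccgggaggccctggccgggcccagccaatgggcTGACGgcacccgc

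The motifs were the full cAMP response element TGACGTCA and its core TGACG, which the full element contains, the C/EBP motifs TTGCGCAA and TTGCNNAAT, the glucocorticoid receptor core AGAACA, the TCF/LEF core CTTTGA and the HNF4 motif CAAAGTCCA. Among all 32851 promoter windows of the table they were present in 1.79%, 20.8%, 0.183%, 2.4%, 19%, 16.0% and 0.475%, in that order. The Slc25a13 window held TGACG from position -13. The Nags window held CTTTGA on the opposite strand, shown as its reverse complement, from position -203, and TGACG on the opposite strand from position 31 after the start. None of the 7 motifs was found in the Ass1 and Otc windows, or in those of Glud1 and Slc25a15, which are not shown. Base composition set the promoters shown apart from each other. Over 300 bases Ass1 was 74.0% G or C with 27 CpG sites. Slc25a13 was 65.0% with 17, Nags 57.7% with 14 and Otc 44.3% with 1. The medians over all windows were 52.7% and 7.

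The zone comparison asked which genes differed between periportal and pericentral hepatocytes in each state. Averaged over the 3 states, 5 of the 10 genes were higher periportally (Otc, Ass1, Asl, Arg1 and Gls2) and 2 were lower (Nags and Glud1), while Cps1, Slc25a15 and Slc25a13 did not pass the test. Called means an adjusted p under 0.05 in edgeR's quasi-likelihood test, adjusted over 12477 genes. Of all genes tested, 10.3% were called higher and 9.96% lower in the averaged comparison. In the fed state 4 genes were called higher (Otc, Asl, Arg1 and Gls2) and 0 lower, beside 3.89% and 4.13% of all genes. At 8 h 4 were higher (Otc, Ass1, Asl and Gls2) and 0 lower, beside 3.72% and 3.42%. At 24 h 2 were higher (Asl and Gls2) and 0 lower, beside 1.7% and 2.47%. The median log2 fold change of the 10 genes, periportal over pericentral, was 0.41 fed, 0.45 at 8 h and 0.41 at 24 h, beside medians of 0.0013, 0.0069 and 0.00094 over all genes tested.

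**Figure D2:**
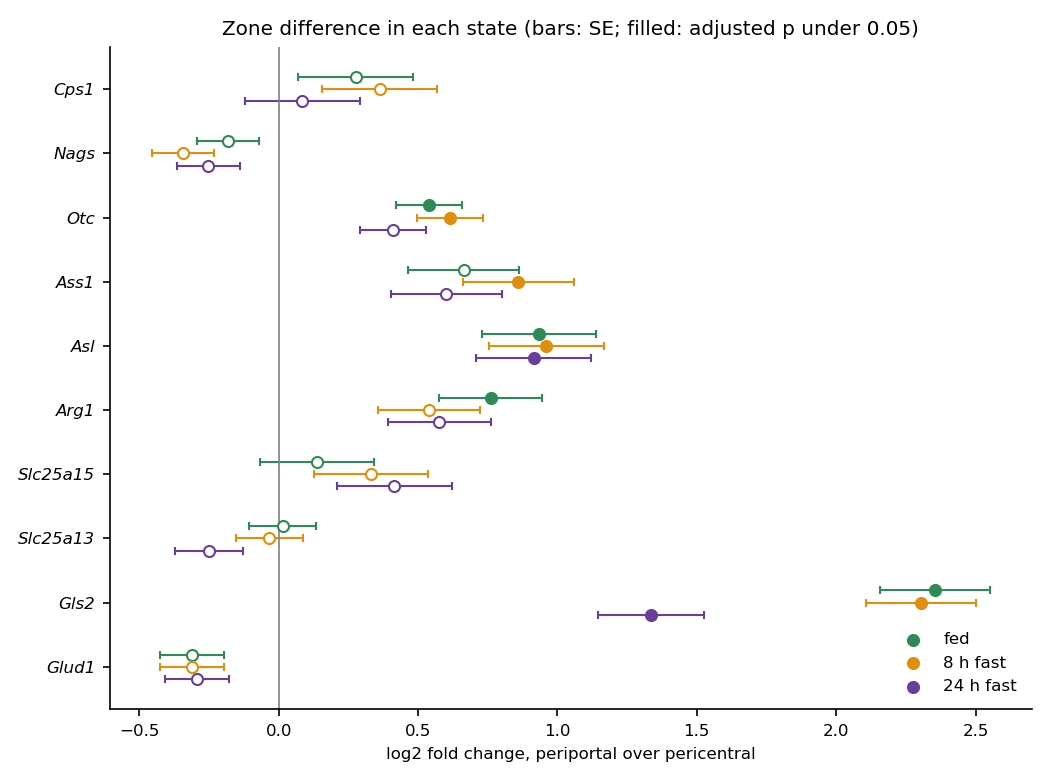
Log2 fold change of periportal over pericentral hepatocytes (horizontal axis) for each gene in the fed state, at 8 h and at 24 h; bars are standard errors and filled points have an adjusted p under 0.05. Gls2 lies at 2.36, 2.31 and 1.34, Asl stays between 0.91 and 0.96, and Glud1 lies left of 0 in all 3 states without a filled point.

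Cps1 (ENSMUSG00000025991, chromosome 1, 67123026 to 67231259, forward strand, 38 exons), the carbamoyl phosphate synthetase that commits ammonia to the cycle, was abundant in both zones. Its pericentral level was 3780, 4005 and 5090 fed, 3726, 5618 and 4878 at 8 h and then 5861, 5089 and 5673 CPM at 24 h. Periportally it was 4714, 5498 and 5376 fed, 3881, 7480 and 6923 at 8 h and then 5871, 5515 and 6246 CPM at 24 h. The zones overlapped in every state, and the order of the 6 group means, from 6095 CPM in periportal 8 h to 4292 CPM in fed pericentral hepatocytes, separated no pair of neighbours. The log2 fold change was 0.28 fed, 0.36 at 8 h and 0.09 at 24 h, and averaged 0.24 (standard error, SE, 0.12), with an edgeR adjusted p of 0.176 for the average. Without periportal 8 h replicate 1, the lowest library of its group at 3881 CPM, the difference was 0.60 at 8 h and 0.32 on average, and both were called.

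Nags (ENSMUSG00000048217, chromosome 11, 102145513 to 102149477, forward strand, 7 exons), which makes the N-acetylglutamate that Cps1 requires, was the lowest gene of the set per length and was higher pericentrally. Pericentral libraries held 77.8, 83.2 and 84.5 fed, 90.5, 98.8 and 90.8 at 8 h and then 71.5, 85.3 and 77.3 CPM at 24 h. Periportal libraries held 61.0, 73.3 and 82.1 fed, 75.4, 78.2 and 67.2 at 8 h and then 70.3, 69.6 and 56.7 CPM at 24 h. The zones overlapped in the fed state and were apart at 8 h and 24 h, with the highest mean in pericentral 8 h hepatocytes. No single state was called. Averaged over the states, Nags was 1.2-fold lower periportally (log2 -0.26, SE 0.06, edgeR adjusted p = 0.0083). An antisense gene, Gm11586, overlaps Nags, and as the use of strand is not given in the sources used here, reads of the pair cannot be told apart.

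Otc (ENSMUSG00000031173, chromosome X, 10252305 to 10321024, forward strand, 10 exons), the mitochondrial ornithine transcarbamylase that makes citrulline, separated the zones in every library. Pericentral levels were 266, 304 and 236 fed, 230, 288 and 265 at 8 h and then 262, 319 and 268 CPM at 24 h. Periportal levels were 383, 398 and 389 fed, 371, 447 and 380 at 8 h and then 373, 368 and 386 CPM at 24 h. Its lowest periportal library exceeded its highest pericentral one over all 3 states. The log2 fold change was 0.54 fed (SE 0.12, edgeR adjusted p = 0.0080), 0.61 at 8 h (edgeR adjusted p = 0.0035) and 0.41 at 24 h (edgeR adjusted p = 0.062, not called), and 0.52 on average (edgeR adjusted p = 2.9e-05). In a fit of the 8 h groups alone the 0.61 was not called, and without pericentral 24 h replicate 2 the 24 h difference was 0.50 and was called. With all libraries kept, the 24 h difference was 0.42 and was called with a block on the replicate number in all 3 states (edgeR adjusted p = 0.024), by DESeq2 (adjusted p = 0.0094) and with a filter on the mean level (edgeR adjusted p = 0.048). A block at 24 h alone, the state in which same-numbered libraries deviated together, gave 0.42 without a call (edgeR adjusted p = 0.075).

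Ass1 (ENSMUSG00000076441, chromosome 2, 31470207 to 31520672, forward strand, 16 exons), argininosuccinate synthetase, joins citrulline and aspartate. Pericentral levels were 2849, 2509 and 3158 fed, 2163, 3107 and 2451 at 8 h and then 3466, 2875 and 3685 CPM at 24 h. Periportal levels were 3715, 5344 and 4429 fed, 3224, 5824 and 4959 at 8 h and then 4813, 5290 and 5104 CPM at 24 h. The zones did not overlap within any state, but periportal 8 h replicate 1 lay below the upper pericentral 24 h libraries. The difference was called at 8 h (log2 0.86, SE 0.20, edgeR adjusted p = 0.013) and on average (0.71, SE 0.12, edgeR adjusted p = 0.00026), not in the fed state (0.66, edgeR adjusted p = 0.0504) or at 24 h (0.60, edgeR adjusted p = 0.11). The single-state calls depended on the processing and on individual libraries. With all libraries kept, the fed difference was called under 5 of 8 other ways of processing (0.65 to 0.67, adjusted p of 0.011 to 0.045 in edgeR or DESeq2), and the 24 h difference by DESeq2 (0.61, adjusted p = 0.035) and in an edgeR fit of the 24 h groups alone (0.61, adjusted p = 0.049). The 8 h call was lost without pericentral 8 h replicate 1 (0.74) or 3 (0.82), without periportal 8 h replicate 2 (0.67) or 3 (0.82) and in a fit of the 8 h groups alone (0.86), while the fed difference was called when periportal fed replicate 1 was left out (0.78), as it was without replicate 1 of the pericentral 8 h group (0.66) or replicate 1 (0.66) or 2 (0.66) of the periportal 8 h group. The 24 h difference, 0.60, was called without periportal 8 h replicate 1. The processed pseudogene Ass-ps1 could share reads with Ass1.

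Asl (ENSMUSG00000025533, chromosome 5, 130011258 to 130029247, reverse strand, 16 exons), argininosuccinate lyase, releases arginine and fumarate and was higher periportally in all 3 states. Pericentral levels were 520.5, 438 and 614 fed, 367, 629 and 478 at 8 h and then 962, 784 and 837 CPM at 24 h. Periportal levels were 854, 1065 and 1085 fed, 661, 1095 and 1111 at 8 h and then 1628, 1661 and 1581 CPM at 24 h. The zones were apart in every state, and every pericentral 24 h library lay above the lowest periportal 8 h library. The log2 fold change was 0.93 fed (SE 0.21, edgeR adjusted p = 0.0083), 0.96 at 8 h (edgeR adjusted p = 0.0076), 0.91 at 24 h (edgeR adjusted p = 0.016) and 0.94 on average (SE 0.12, edgeR adjusted p = 2.1e-05), or 1.91-fold. The fed call was lost without pericentral fed replicate 2 (0.815), and the 8 h call in a fit of the 8 h groups alone (0.96). The 24 h call was lost without pericentral 24 h replicate 2 (0.85) or 3 (0.89) or periportal 24 h replicate 2 (0.90) or 3 (0.93).

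Arg1 (ENSMUSG00000019987, chromosome 10, 24915221 to 24927484, reverse strand, 8 exons), arginase, splits arginine into urea and ornithine. Its pericentral level was 712, 1012 and 1141 fed, 1309, 1654 and 1642 at 8 h and then 1800.0, 1875 and 1708 CPM at 24 h. Its periportal level was 1502, 1627 and 1727 fed, 1574, 2573 and 2541 at 8 h and then 2522, 2782 and 2721 CPM at 24 h. The zones were apart in the fed state and at 24 h and overlapped at 8 h through periportal 8 h replicate 1. Arg1 was higher periportally in the fed state (log2 0.76, SE 0.18, edgeR adjusted p = 0.015) and on average (0.63, SE 0.11, edgeR adjusted p = 0.00038), with values of 0.54 at 8 h and 0.58 at 24 h that were not called (edgeR adjusted p = 0.092 and 0.096). The fed call was lost without pericentral fed replicate 1 (0.58) or periportal fed replicate 3 (0.71), and without periportal 8 h replicate 1 the differences at 8 h (0.73) and 24 h (0.57) were called. With all libraries kept, DESeq2 called both (0.55 and 0.58, adjusted p = 0.032 and 0.027). Both were also called with a block on the replicate number in all 3 states (0.52 and 0.57, edgeR adjusted p = 0.036 for each). The 24 h difference was called in a fit of the 24 h groups alone as well (0.58, edgeR adjusted p = 0.028). With the block at 24 h alone it was 0.58 and not called (edgeR adjusted p = 0.13).

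The carriers gave no zone call. Slc25a15 (ENSMUSG00000031482, chromosome 8, 22375551 to 22398597, reverse strand, 7 exons), which exchanges ornithine for citrulline across the inner mitochondrial membrane, ranged from 227 to 376.5 CPM with a median of 264.5 CPM in pericentral libraries and from 242 to 463 CPM with a median of 328 CPM in periportal ones. The zones overlapped in all 3 states. Its averaged log2 difference was 0.29 (SE 0.12, edgeR adjusted p = 0.095), and it was called without periportal 8 h replicate 1 (0.36) or pericentral 24 h replicate 1 (0.37). Slc25a13 (ENSMUSG00000015112, chromosome 6, 6041218 to 6217173, reverse strand, 18 exons), the citrin carrier that exports the aspartate Ass1 consumes, differed by -0.09 on average (SE 0.07, edgeR adjusted p = 0.42).

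Gls2 (ENSMUSG00000044005, chromosome 10, 128194457 to 128210004, forward strand, 18 exons), the liver glutaminase that releases ammonia from glutamine, had the widest zone difference of the 10 genes. Pericentral levels were 95.0, 93.8 and 125 fed, 96.3, 119 and 110 at 8 h and then 180.0, 320 and 194 CPM at 24 h. Periportal levels were 502, 535 and 569.5 fed, 425.5, 585 and 595 at 8 h and then 577, 608 and 567 CPM at 24 h. All 9 periportal libraries lay above all 9 pericentral ones, and the pericentral 24 h libraries, replicate 2 most of all, lay above the other 6 pericentral ones. Gls2 was higher periportally by 2.36 on the log2 scale fed (SE 0.20, edgeR adjusted p = 2.7e-06), or 5.12-fold, and by 2.31 at 8 h (SE 0.20, edgeR adjusted p = 4.7e-06), or 4.94-fold. The 24 h value was 1.34 (SE 0.19, edgeR adjusted p = 0.00059), or 2.53-fold. Spryd4, which overlaps Gls2 on the opposite strand, was at 15.1 to 24.2 CPM in pericentral and 14 to 28.3 CPM in periportal libraries, well below Gls2 in each zone.

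Glud1 (ENSMUSG00000021794, chromosome 14, 34310727 to 34345265, forward strand, 13 exons), glutamate dehydrogenase, frees ammonia from glutamate and can also run in reverse. It was the only member besides Nags called lower periportally. Pericentral levels were 1265, 1277 and 1290 fed, 1305, 1285 and 1439 at 8 h and then 1297, 1188 and 1457 CPM at 24 h. Periportal levels were 1004, 907 and 1178 fed, 1063, 1125 and 1058 at 8 h and then 1029, 1029 and 1160.0 CPM at 24 h. All 9 pericentral libraries exceeded all 9 periportal ones, by a narrow margin. The log2 difference was -0.31, -0.31 and -0.29 in the fed, 8 h and 24 h states, none of them called, and -0.30 on average (SE 0.07, edgeR adjusted p = 0.0031). The pseudogene Glud-ps could share reads with Glud1.

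With the groups ordered by mean, the steps at which neighbouring groups did not overlap in any library are given for each gene. These are descriptions without a test, and the share of such steps over all genes was not computed. Gls2 had 2 such steps, from the 3 periportal groups (584 to 535 CPM) down to pericentral 24 h (231 CPM) and from there to the other pericentral groups (108 and 105 CPM). Otc and Ass1 each had 1, between the lowest periportal mean (376 and 4496 CPM) and the highest pericentral mean (283 and 3342 CPM), and Glud1 had 1 in the opposite order (1277 CPM pericentral, 1082 CPM periportal). Asl stepped down from periportal 24 h (1623 CPM) to periportal fed (1002 CPM) and again from pericentral 24 h (861 CPM) to pericentral fed (524 CPM). Arg1 had a single step, from pericentral 8 h (1535 CPM) to pericentral fed (955 CPM), so that every other pair of neighbouring groups overlapped. Nags was highest in pericentral 8 h hepatocytes (93.4 CPM) and Slc25a13 in pericentral 24 h hepatocytes (312 CPM), each apart from the next group. Slc25a15, like Cps1, had no such step between neighbours. Groups further apart in the order could still be separate, as periportal fed and periportal 24 h were for both genes.

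Fasting was compared with the fed state within each zone. In pericentral hepatocytes 1 of the 10 genes was called higher at 8 h, Arg1, and 0 lower, beside 7.27% and 6.57% of all genes, so the count was close to the background. At 24 h 4 were higher (Asl, Arg1, Slc25a13 and Gls2) and 0 lower, beside 10.8% and 11.1%. From 8 h to 24 h 3 were higher (Asl, Slc25a13 and Gls2) and 0 lower, beside 5.2% and 4.51%. In periportal hepatocytes 0 were called by edgeR at 8 h, beside 7.56% higher and 6.85% lower among all genes. At an unadjusted p under 0.05 there were 2 of the 10 (Arg1 and Slc25a13), beside 3439 of all 12477 genes tested. DESeq2 and limma-voom also called 0 of the 10. At 24 h 2 were higher (Arg1 and Asl) and 0 lower, beside 9.59% and 10%, and from 8 h to 24 h 2 were higher (Asl and Slc25a13) and 0 lower, beside 3.22% and 4.24%. The comparisons with fed share the fed libraries of their zone.

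**Figure D3:**
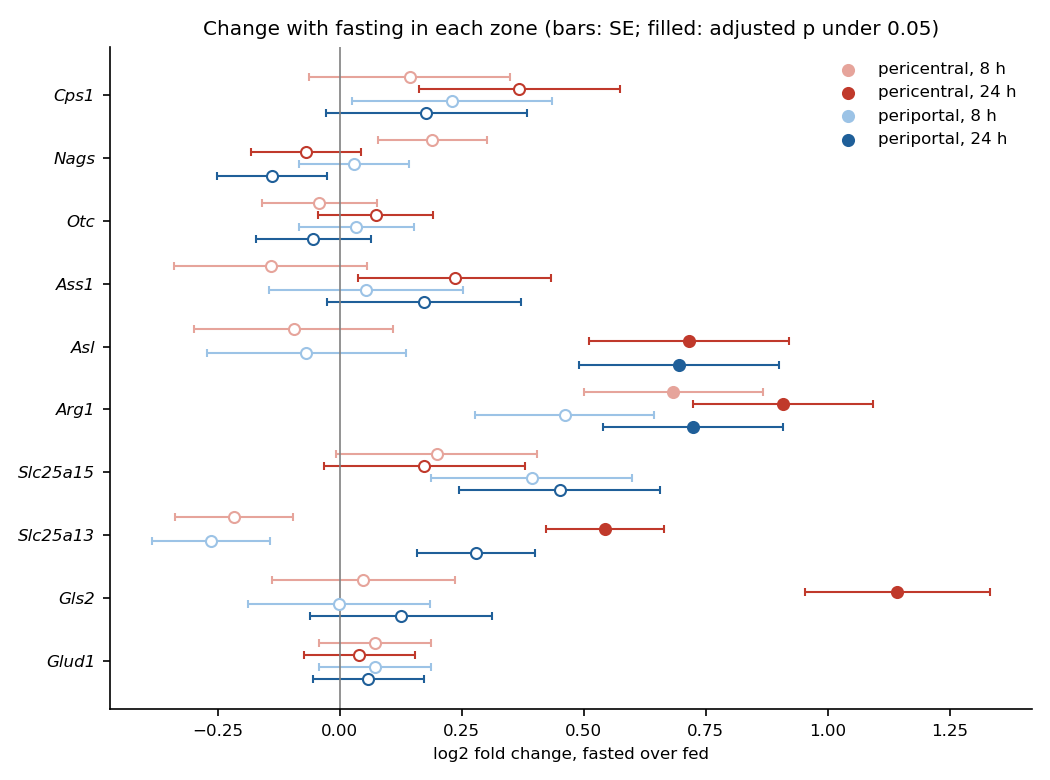
Log2 fold change from fed to fasted (horizontal axis) for each gene in each zone at 8 h and 24 h; bars are standard errors and filled points have an adjusted p under 0.05. Filled points are Asl and Arg1 at 24 h in both zones, Arg1 at 8 h in pericentral hepatocytes, and Slc25a13 (0.54) and Gls2 (1.14) at 24 h in pericentral hepatocytes.

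Arg1 rose in pericentral hepatocytes by 8 h, from a mean of 955 ± 220 CPM (SD, n = 3) to 1535 ± 196 CPM, and stood at 1794 ± 83.8 CPM at 24 h. The log2 change at 8 h was 0.68 (SE 0.18, edgeR adjusted p = 0.019), or 1.61-fold, and that at 24 h was 0.91 (SE 0.18, edgeR adjusted p = 0.0022), or 1.88-fold. All 3 fed pericentral libraries lay below every fasted one. In periportal hepatocytes the change was 0.46 at 8 h (edgeR adjusted p = 0.11, not called) and 0.72 at 24 h (SE 0.18, edgeR adjusted p = 0.011). The pericentral 8 h call was lost without pericentral fed replicate 1 (0.52) or pericentral 8 h replicate 2 (0.64) or 3 (0.64). Leaving out periportal fed replicate 1 ended the periportal 24 h call (0.67), and the periportal 8 h change was called without periportal 8 h replicate 1 (0.66).

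Asl rose in both zones at 24 h, while its log2 change from fed to 8 h was -0.09 pericentrally and -0.07 periportally, neither of them called. Pericentral means were 524 ± 88.2, 491 ± 131 and 861 ± 91.3 CPM, and periportal means 1002 ± 128, 955.5 ± 256 and 1623 ± 40.2 CPM (SD, n = 3) in the fed, 8 h and 24 h states. The 24 h libraries lay above all fed and all 8 h libraries of their zone. The log2 change from fed to 24 h was 0.72 (SE 0.21, edgeR adjusted p = 0.020) pericentrally and 0.70 (SE 0.20, edgeR adjusted p = 0.024) periportally, and from 8 h to 24 h 0.81 (edgeR adjusted p = 0.021) and 0.76 (edgeR adjusted p = 0.033). These calls sat near the threshold. The pericentral 24 h call was lost without pericentral fed replicate 1 (0.70) or 2 (0.60) or pericentral 24 h replicate 1 (0.62), and the periportal one without periportal fed replicate 1 (0.59) or any of periportal 24 h replicates 1 to 3 (0.69, 0.68 and 0.71). Between 8 h and 24 h the pericentral call was lost without pericentral 8 h replicate 1 (0.63) or 3 (0.78) or pericentral 24 h replicate 1 (0.71) or 3 (0.83). The periportal call between these times was lost without periportal 8 h replicate 1 (0.55) or 2 (0.87), without any of periportal 24 h replicates 1 to 3 (0.76, 0.75 and 0.78), and in a fit of those groups alone (0.77).

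Slc25a13 was at 209, 229 and 204 fed, 160, 182.5 and 211 at 8 h and then 286, 345 and 306 CPM at 24 h in pericentral hepatocytes. Periportally it was at 193, 202 and 254 fed, 174, 187 and 180 at 8 h and then 280, 261 and 247 CPM at 24 h. The 24 h libraries were the highest pericentrally, while periportally 1 fed library reached into their range. From fed to 24 h the log2 change was 0.54 (SE 0.12, edgeR adjusted p = 0.0041) in pericentral hepatocytes and 0.28 (SE 0.12, edgeR adjusted p = 0.12, not called) in periportal ones, where it was called without periportal fed replicate 3 (0.41). From 8 h to 24 h Slc25a13 rose in both zones, by 0.76 (SE 0.12, edgeR adjusted p = 0.0012) and 0.54 (SE 0.12, edgeR adjusted p = 0.013). The ornithine carrier Slc25a15 had log2 differences from fed of 0.20 at 8 h and 0.17 at 24 h pericentrally and of 0.39 and 0.45 periportally, none of them called, and without periportal 8 h replicate 1 the periportal 8 h change (0.62) was called.

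Gls2 in pericentral hepatocytes was at 105 ± 17.8 CPM fed and 108 ± 11.2 CPM at 8 h and rose to 231 ± 76.8 CPM at 24 h (SD, n = 3). The log2 change at 24 h was 1.14 from fed (SE 0.19, edgeR adjusted p = 0.00046) and 1.09 from 8 h (SE 0.19, edgeR adjusted p = 0.0021), a 2.21-fold and a 2.14-fold rise. Periportal Gls2 differed by 0.13 between fed and 24 h (SE 0.19, edgeR adjusted p = 0.70), from 536 ± 33.6 to 584 ± 21.1 CPM. In pericentral 24 h replicate 2, at 320 CPM, all 6 periportal markers were also higher (Pck1 by little, 4840 against 4810 CPM) and all 7 pericentral markers lower than the mean of its group's other 2 libraries, in which Gls2 averaged 187 CPM. Without that library the pericentral rise was 0.84 from fed (SE 0.16) and 0.79 from 8 h (SE 0.16), and the zone difference at 24 h was 1.64 (SE 0.17), all 3 still called. Periportal markers were above fed in pericentral 24 h replicates 1 and 3 as well. Hal was at 243 and 196 CPM against 46.8 to 67.1 CPM fed, and Cyp2f2 at 345 and 322 CPM against 132 to 254 CPM. With all 3 libraries, 5 of the 6 periportal markers were called higher than fed, beside 10.8% of all genes. Of the 7 pericentral markers 0 were called in either direction. The part of the libraries' zone composition in the remaining Gls2 rise was not tested.

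**Figure D4:**
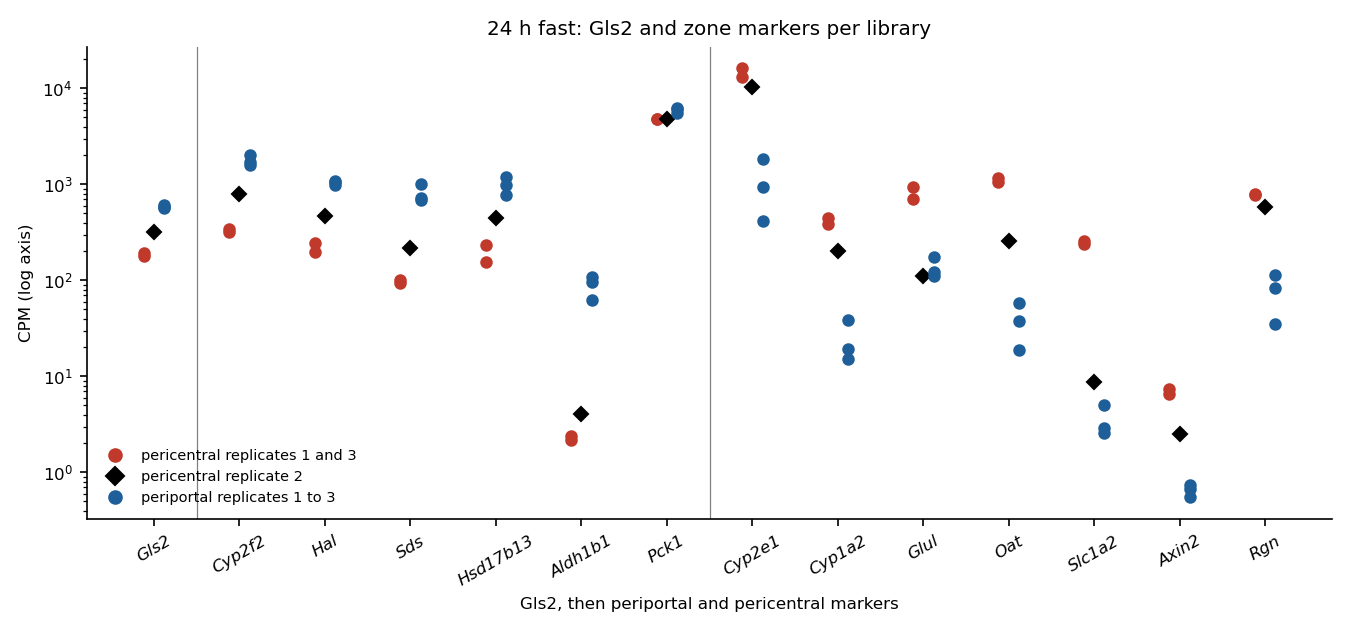
Level in CPM (log axis) of Gls2, 6 periportal and 7 pericentral markers in the 24 h libraries; red points are pericentral replicates 1 and 3, black diamonds pericentral replicate 2 and blue points the periportal libraries. The black diamond lies between the mean of the red and the mean of the blue points for Gls2 (320 CPM between 187 and 584 CPM) and for 12 of the 13 markers; the exception is Glul, at 111 CPM beside a periportal mean of 136 CPM.

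Whether fasting changed a gene by a different amount in the zones was tested as the periportal change minus the pericentral change. None of the 10 genes was called by edgeR, DESeq2 or limma-voom from fed to 8 h, from fed to 24 h or from 8 h to 24 h, where edgeR called 0.0%, 0.016% and 0.0% of all genes. At an unadjusted p under 0.05 there were 0, 1 and 1 of the 10, in both cases Gls2. Of the 12477 genes tested, 680, 962 and 746 were under it. For Gls2 the term was -1.02 on the log2 scale from fed to 24 h (SE 0.27), with an edgeR adjusted p of 0.35 that ranged from 0.063 to 0.72 over the alternatives. Without pericentral 24 h replicate 2 it was -0.71 (SE 0.21). For Arg1 the same term was -0.18 (SE 0.26), for Asl -0.02 (SE 0.29) and for Slc25a13 -0.26 (SE 0.17). For Arg1 and Asl the standard errors leave room for sizeable differences in either direction, and for Slc25a13 mainly for a smaller periportal than pericentral change.

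Nags, Otc, Ass1, Cps1 and Glud1 had 0 calls in the 6 fasting comparisons. Their changes from fed to 24 h were -0.07, 0.07, 0.24, 0.37 and 0.04 on the log2 scale in pericentral hepatocytes and -0.14, -0.05, 0.17, 0.18 and 0.06 in periportal ones, with SE between 0.11 and 0.21.

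A list of 28 further genes of nitrogen handling was followed beside the 10, and 24 of them passed the filter on low counts. In the averaged zone comparison 5 were higher periportally, among them Slc38a4, Aldh18a1, Slc25a12 and Slc7a2. Another 6 were lower (Car5a, Sirt3, Glul, Oat, Aqp9 and Agmat). The shares over all genes were 10.3% higher and 9.96% lower. The median log2 fold change of the 24 was 0.11 beside 0.0017 over all genes. The call of Aldh18a1 (0.60, edgeR adjusted p = 0.047) was lost in 14 of the 18 fits that left out 1 library, at 0.48 to 0.64, and the other 10 calls were kept in all 18. Aqp9, a channel that passes glycerol and urea, was lower periportally in every state, at -1.57 fed, -1.46 at 8 h and -1.30 at 24 h (SE 0.17 each, edgeR adjusted p at most 0.00031). Car5a, the mitochondrial carbonic anhydrase that supplies bicarbonate to Cps1, was lower periportally, at -0.63 on average (SE 0.07, edgeR adjusted p = 7.3e-06), on the same side as Nags. Glul, which makes glutamine from ammonia, and Oat, which degrades ornithine, were lower, at -2.76 (SE 0.34) and -5.00 (SE 0.40), and both belong to the pericentral markers. Slc25a12, the aspartate carrier related to Slc25a13, differed by 0.51 (SE 0.08).

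With fasting, 8 of the 24 rose and 1 fell from fed to 24 h in pericentral hepatocytes, and 7 rose and 3 fell in periportal ones, beside 10.8% of all genes higher and 11.1% lower pericentrally and 9.59% and 10% periportally. Of these calls, pericentral Hnf4a was lost without pericentral 24 h replicate 3 (0.43), periportal Cebpa without periportal 24 h replicate 3 (-0.75), and periportal Cebpb without periportal fed replicate 3 (0.75) or periportal 24 h replicate 2 (0.77); these 3 encode transcription factors of the hepatocyte. Slc7a2, a transporter of arginine and other cationic amino acids, rose by 2.88 (SE 0.22, edgeR adjusted p = 6.8e-07) pericentrally and 2.20 (SE 0.22, edgeR adjusted p = 7.6e-06) periportally. Its pericentral mean went from 160 ± 29.0 to 1177 ± 95.3 CPM and its periportal mean from 292.5 ± 47.2 to 1347 ± 180 CPM (SD, n = 3). Got1, the cytosolic transaminase that exchanges aspartate and oxaloacetate, rose by 2.70 (SE 0.42) and 2.26 (SE 0.41), and Slc25a22, a mitochondrial glutamate carrier, by 1.24 (SE 0.26) and 1.61 (SE 0.27). Cad, an enzyme of pyrimidine synthesis, fell by 1.82 (SE 0.20) and 1.67 (SE 0.20). From fed to 24 h Slc38a2 and Sirt3 were also called higher in both zones, and Nr3c1 lower periportally. At 8 h against fed, 3 were called higher periportally (Slc25a22, Got1 and Slc7a2) and 3 lower (Slc38a3, Cad and Nr3c1). The shares over all genes were 7.56% and 6.85%. Pericentrally the same 3 were called higher and Cad lower, beside 7.27% and 6.57%.

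For each of the 7 genes called in the averaged zone comparison, the 2 most similar profiles were taken from 6572 candidates with a mean of at least 10 CPM, by the root mean square difference of centred log2 CPM over the 18 libraries. Gls2 was closest to Sfxn1, a mitochondrial serine transporter (0.28), and Pigr (0.30), against a spread of Gls2 itself of 1.09. Arg1 was closest to Aass (0.20), an enzyme of lysine breakdown, and Atl2. Asl was closest to Atp1b1 (0.285) and Sult1a1, Ass1 to Gusb (0.21) and Apoc3, and Otc to Il1rap (0.11) and Atp5g1. The nearest profiles of Nags were Csk (0.12) and Ppdpf, and those of Glud1 were Nploc4 (0.099) and Psmd4. None of the 10 genes was a candidate for another, and the distances carry no test.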

How the data were processed

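RNA was measured in 18 libraries, 3 for each of 6 groups of zone and feeding state. Estimated counts per gene, 1 column for each library, are what the authors deposited. The submitters' processing notes name kallisto 0.46.0 and the build mm10, with no role or order, and the annotation and the use of strand are not given in the sources used here. Between 67.5% and 70.5% of the values in a library were whole, and all were rounded to units of 1. Total counts were 1.84e+07 to 2.64e+07 per library.

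Testing used edgeR 4.0.16 in R 4.3.3 (quasi-likelihood F test, robust, TMM scaling, filterByExpr on the 6 groups), with 13 contrasts from 1 fit of all 18 libraries. Benjamini-Hochberg adjustment ran over the 12477 genes tested, and a gene was called under 0.05. The SE is the size of the log2 fold change divided by the square root of F. CPM were computed with TMM factors. Gene positions, exon counts and lengths come from GENCODE M21, longest coding transcript of the basic set, and promoters from RefSeq.

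Alternatives were DESeq2 size factors, no filter beyond 1 count, a mean of at least 1 CPM, scaling without the 20 most abundant genes, a replicate block, limma 3.58.1 voom, DESeq2 1.42.0, a fit of the compared groups alone, and leaving out each library. Replicate numbers were checked for pairing of the zones, which the labels do not state: at 24 h deviations of the 3 same-numbered pairs from their group means correlated at 0.121 to 0.165, each over 0.1, and those of the 6 other pairs at -0.121 to -0.024, so a block at 24 h alone was added after seeing the data. The test was checked on simulated counts, and 0 pairs of replicates were found to be 1 library deposited again. The 10 genes, the 28 further genes, the markers and the motifs were chosen with earlier results of these data known. The text names the 10 genes, those of the 28 called in the averaged zone comparison or a fasting comparison with fed, and the 2 nearest profiles. For 1 of the 28, counted with the rest, no name or values are reported here.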

Additional observations from a re-analysis of the deposited data

How the results depend on the processing

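Over the 10 genes and 13 comparisons there were 130 results, 29 of them called, and 3410 values under alternatives. Of these values 3343 kept their side of the threshold, 35 lost a call, 32 gained one, and 0 reversed the direction of a called value; 115 values that were not called differed in sign. The number of the 10 genes called changed by over 1.5 times in the following cases, and the cause was not tested. A fit of the compared groups alone, which has fewer libraries, called 1 at 8 h between zones in place of 4, 4 at 24 h in place of 2, and 1 from 8 h to 24 h in periportal hepatocytes in place of 2. DESeq2 called 5 genes at 24 h between zones. Leaving out 1 library at a time gave 1 to 4 calls between zones at 24 h, 0 to 1 from fed to 8 h in pericentral hepatocytes, 0 to 2 from fed to 8 h, 0 to 3 from fed to 24 h and 1 to 2 from 8 h to 24 h in periportal hepatocytes.

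With the replicate number as a block, 4 genes were called between zones at 24 h in place of 2; over all comparisons the block lost 0 calls and gained 4, Otc (0.42) and Arg1 (0.57) at 24 h, Arg1 (0.52) at 8 h and Ass1 (0.65) fed. The labels do not say that the numbers pair the zones. In the fed state and at 8 h, deviations of same-numbered libraries from their group means correlated at -0.011 to 0.071. With 3 libraries per group this does not settle whether they are paired. A block at 24 h alone, chosen after seeing the data, called 2 genes between zones at 24 h and changed no call of the 10 genes in the 4 comparisons it was fitted for.

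Scaling without the 20 most abundant genes moved libraries by -0.024 to 0.014 on the log2 scale. DESeq2 also called Glud1 lower periportally fed (-0.31) and at 8 h (-0.30). With 3 libraries per group, changes of the size of the SE, 0.11 to 0.21 on the log2 scale, could not be resolved.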

Other observations

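In 3 of the 6 groups 1 library was the lowest for 8 or 9 of the 10 genes. Periportal fed replicate 1 was the lowest of its 3 libraries for 9 of the 10 genes, all but Glud1. Periportal 8 h replicate 1 was the lowest for 8 of the 10, all but Nags and Glud1, with Cps1 at 3881 CPM beside 7480 and 6923 CPM and Arg1 at 1574 CPM beside 2573 and 2541 CPM. Pericentral 8 h replicate 1 was also the lowest for 8 of the 10, all but Slc25a15 and Glud1. Pericentral 8 h replicate 2 and periportal 8 h replicate 2 were each the highest of their group for 8 genes. In the other 3 groups no library was the lowest for more than 5 genes: the lowest values split 5, 3 and 2 over replicates 1 to 3 in fed pericentral, 4, 5 and 1 in pericentral 24 h and 4, 2 and 4 in periportal 24 h hepatocytes. The same share over all genes was not computed. No test was made of these patterns, and replicate numbers are not stated to link libraries of the zones.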
